A study of Xenopus laevis with 8 samples.

Results

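Fibronectin, the integrins that bind it and its relatives, membrane-type and secreted matrix metalloproteases and matricellular proteins were examined as a group in foregut endoderm of the frog Xenopus laevis. The group was defined by a list of 10 genes, fn1, itgb1, itga3, itga5, itga6, sparc, mmp14, mmp2, ccn1 and ccn2. Every probe set with one of these names, an older name or a locus number for it in RefSeq's gene table was taken. This gave 21 probe sets for 8 of the 10 genes, out of 15611 probe sets in the table and 4050 genes with a name. There were 4 probe sets for each of fn1, itga3 and itga5, 3 for itgb1, 2 each for itga6 and ccn2, and 1 each for mmp14 and mmp2. Of these, itgb1 Xl.25891.1.A1_at and Xl.818.1.S1_at and itga5 Xl.1048.1.A1_at carried only a locus number, and their identity was not checked. No probe set was matched to sparc or ccn1 by name, so these genes are not analysed here.

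The study asked which transcripts foregut endoderm gains from contact with mesoderm. Explants were cut at stage 15 and kept in 0.5X MBS, a saline culture medium, until stage 23, and endoderm was then frozen for RNA. Endoderm cultured with mesoderm came from intact explants and was separated from its mesoderm at the end of culture (4 arrays). Endoderm cultured alone had been separated at the start (4 arrays). Contact with mesoderm and the later separation came together in every set, so their effects cannot be told apart. The arrays of each group are labelled set 1 to set 4, and nothing says whether sets are separate clutches, animals or days, so the p-values below measure the spread between these samples, which may be technical. In whole tissue, fewer cells of a type and less RNA per cell also cannot be told apart.

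Fibronectin is a large secreted glycoprotein that cells assemble into fibrils. It is bound mainly by the integrin made of the alpha 5 and beta 1 chains, which links the fibrils to the actin cytoskeleton through talin, vinculin and focal adhesion kinase. In frog embryos fibronectin fibrils line the boundary between germ layers, including that between foregut endoderm and mesoderm, and in the Xenopus foregut tolloid proteases are known to reduce this matrix while the secreted inhibitor Sizzled protects it. Matricellular proteins such as those of the CCN family are secreted into the matrix and modulate signalling rather than build fibrils.

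The arrays carry 44 negative control probe sets, made to bacterial genes and artificial tags, and their mean was 4.52 with mesoderm and 4.47 alone on the log2 scale. A probe set within 1 log2 unit of these means in both groups is called near background. Of the 21 probe sets, 14 lay above background, for fn1, itgb1, itga3, itga5, mmp14 and ccn2. The other 7, which include every probe set of itga6 and mmp2, lay near background. Every difference below is the mean over the 4 sets of log2 intensity with mesoderm minus log2 intensity alone, and the ± after it is the SD of the 4 differences. Tests are limma's moderated test over all 15491 probe sets that are not controls, with Benjamini-Hochberg adjustment. In the fit without a set term, the percentage called at an adjusted p under 0.05 was 0 in each direction. With the set as a block, here called within sets, it was 0.258% higher and 0.129% lower with mesoderm.

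None of the 21 probe sets passed in either fit. Without the set term the adjusted p was 1.00 for each of them, and within sets it ran from 0.111 to 0.990. At an unadjusted p under 0.05 in limma, 0 of the 21 were found without the set term, where 1.31% of all probe sets were higher and 1.17% lower. Within sets 3 were found, all lower with mesoderm, where 5.42% of all probe sets were lower and 3.93% higher. These 3 were a pair of fn1 probe sets and 1 of the ccn2 probe sets, and they were also the only 3 lower in all 4 sets, against 10.3% of all probe sets. A single probe set, an itga5 probe set near background, was higher in all 4 sets, against 8.35% of all probe sets. Over all 21 probe sets, 12 differences were above 0 and 9 below, with a median of 0.04 and extremes of -0.71 and 0.23. Over all probe sets the median was 0.01, with the central 90% between -0.35 and 0.28.

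**Figure D1:**
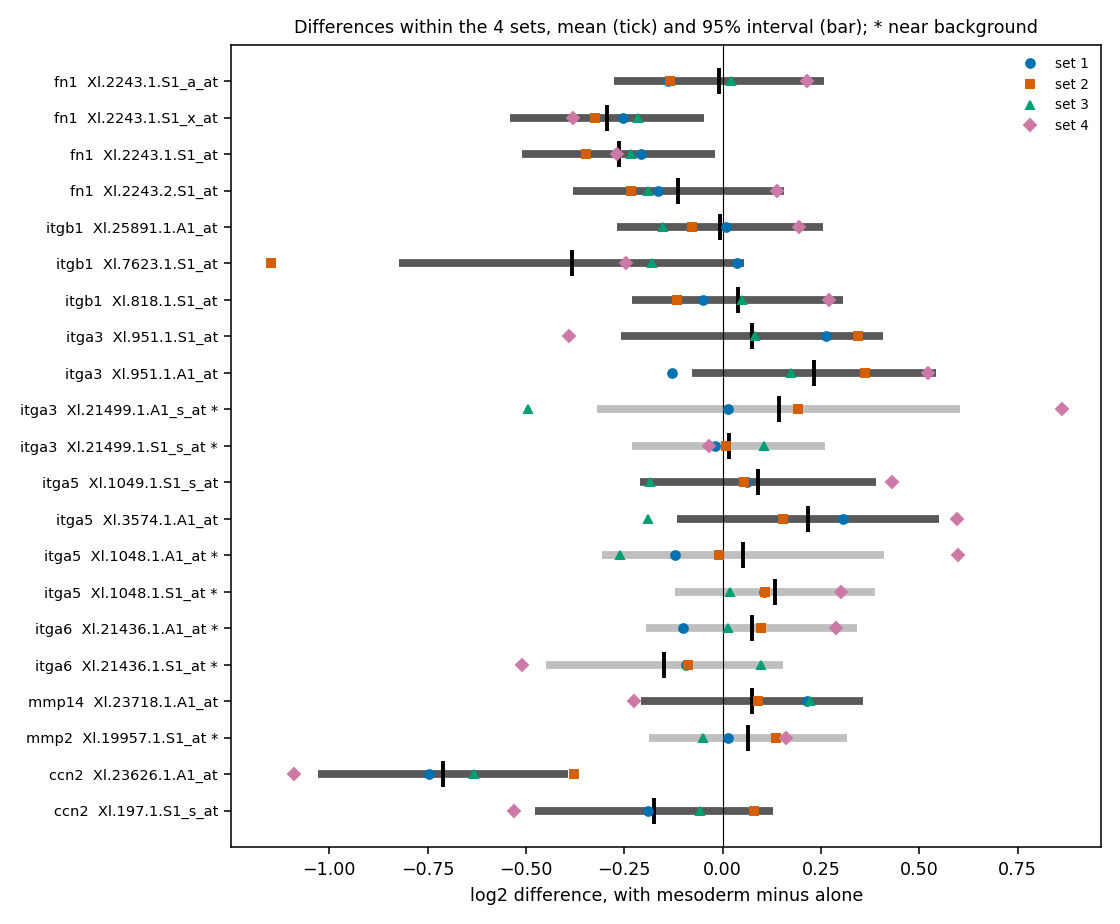
Log2 difference, with mesoderm minus alone, of each of the 21 probe sets in each of the 4 sets (coloured symbols), with the mean (black tick) and limma's 95% interval within sets (bar, light grey and an asterisk where the probe set was near background). The intervals of 3 probe sets lie wholly below 0, those of fn1 Xl.2243.1.S1_x_at, fn1 Xl.2243.1.S1_at and ccn2 Xl.23626.1.A1_at, and no interval lies wholly above 0.

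Fibronectin RNA was read well above background in every sample, and its 4 probe sets did not give 1 answer. Probe set Xl.2243.1.S1_a_at, whose suffix marks probes to alternative transcripts of the same gene, read 9645, 8849, 10761 and 11511 with mesoderm in sets 1 to 4, and 10611.5, 9703, 10607.5 and 9929 alone. The groups overlapped, with the mesoderm array lower in sets 1 and 2 and higher in sets 3 and 4. The difference was -0.01 ± 0.17, and limma's 95% interval within sets, -0.28 to 0.26, allows a level from 0.825 to 1.20 times that of endoderm alone.

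The other 2 probe sets of the same cluster and sub-number were lower with mesoderm. Xl.2243.1.S1_x_at read 5401, 4682, 4947 and 4442 with mesoderm, against 6441, 5861, 5738 and 5780.0 alone. Every array with mesoderm was below every array alone, and the difference was -0.29 ± 0.07, a level alone 1.23 times that with mesoderm (within sets, adjusted p = 0.425 in limma). The x in this suffix marks probes that may also bind other transcripts. Xl.2243.1.S1_at, whose probes carry no such mark, read 3147, 2889, 2803 and 2708 with mesoderm and 3634, 3677, 3293 and 3263.5 alone. Again the groups did not overlap, and the difference was -0.26 ± 0.06 (within sets, adjusted p = 0.489 in limma). Of all probe sets, 0.859% had groups that did not overlap with mesoderm lower and 1.03% with mesoderm higher.

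The last fibronectin probe set, which has the same cluster number but another sub-number, read 2111, 2623, 2703 and 2033 with mesoderm and 2367, 3084.5, 3081 and 1848 alone (Xl.2243.2.S1_at). It was lower with mesoderm in sets 1 to 3 and higher in set 4, with a difference of -0.11 ± 0.17 and an interval within sets from -0.38 to 0.16. The mean differences of the 4 probe sets thus lay between -0.29 and -0.01. The pair that did not overlap moved together over the 8 arrays (Pearson r = 0.94), and since both stem from the same cluster they are not independent measurements. The brightest one, of that cluster too, tracked neither of them (r = -0.06 and -0.20), nor Xl.2243.2.S1_at (r = -0.14).

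**Figure D2:**
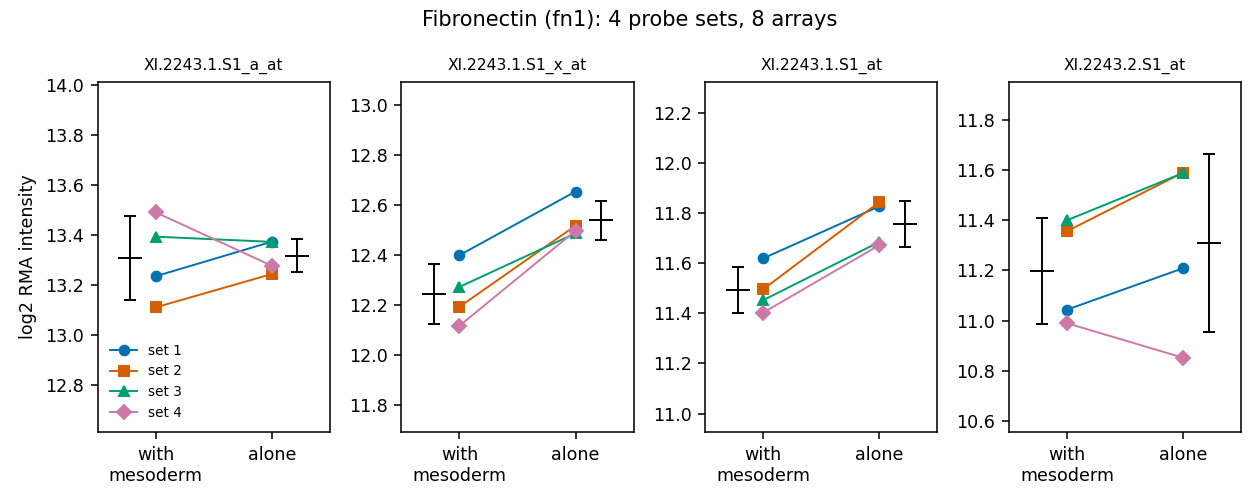
Log2 RMA intensity of the 4 fibronectin probe sets, with mesoderm on the left and alone on the right of each panel; lines join the arrays of a set, and black bars give the mean and SD of 4 arrays, on axes that span the same number of log2 units. All 4 lines rise from left to right for Xl.2243.1.S1_x_at and Xl.2243.1.S1_at (differences of -0.29 and -0.26), and lines cross for Xl.2243.1.S1_a_at.

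These probe sets also differed in how much of their variation lay between sets. For Xl.2243.1.S1_x_at and Xl.2243.1.S1_at the sets held 22.9% and 23.7% of the sum of squares over the 8 arrays and the culture condition 73.6% and 73.4%. For Xl.2243.2.S1_at the sets held 87.3% and the condition 4.73%. For Xl.2243.1.S1_a_at, the brightest, the sets held 57.8%, the condition 0.172% and the rest 42.0%. Over the 21 probe sets the share held by sets had a median of 68.4% and ran from 22.9% to 96.1%.

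Integrin beta 1, the chain shared by most matrix-binding integrins, passed the test in none of its 3 probe sets. Xl.25891.1.A1_at read 2509, 2099, 2266 and 1839.7 with mesoderm and 2494, 2216, 2516 and 1608 alone, a difference of -0.01 ± 0.15 with an interval within sets from -0.27 to 0.26. Set 4 was lowest in both groups, and the sets held 91.2% of the sum of squares. Xl.7623.1.S1_at read 2067, 754, 2239 and 2260.3 with mesoderm and 2016, 1671, 2535 and 2679.8 alone. Its difference of -0.38 ± 0.52 rests on set 2, where the array with mesoderm was far below the other 7 arrays and the difference was -1.15. Without set 2 the difference was -0.13. The remaining probe set was dim, at 47.1, 38.2, 57.4 and 59.2 with mesoderm and 48.7, 41.5, 55.5 and 49.1 alone (Xl.818.1.S1_at, difference 0.04 ± 0.17).

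Integrin alpha 5, the fibronectin receptor's own alpha chain, was measured above background by 2 of its 4 probe sets. Xl.3574.1.A1_at read 159, 159.6, 136 and 141 with mesoderm and 129, 143, 155 and 93.3 alone, higher with mesoderm in sets 1, 2 and 4 and lower in set 3. The difference was 0.22 ± 0.33, with an interval within sets from -0.12 to 0.55 (adjusted p = 0.735 in limma). Xl.1049.1.S1_s_at, whose probes are shared by several transcripts, read 172, 119, 159 and 139 with mesoderm and 165, 115, 180.2 and 103 alone, a difference of 0.09 ± 0.25. Both probe sets had their largest gain in set 4, at 0.60 and 0.43. The median difference in that set was 0.36 for the negative controls and 0.05 for all probe sets. The other 2 alpha 5 probe sets lay near background, between 14.1 and 41.3 with mesoderm and between 13.1 and 40.4 alone, with differences of 0.05 and 0.13.

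Integrin alpha 3, which pairs with beta 1 and mainly binds laminins, had 1 bright probe set. Xl.951.1.S1_at read 495, 828, 382 and 476 with mesoderm and 413, 652, 361 and 623 alone. It was higher with mesoderm in sets 1 to 3, by 0.26, 0.34 and 0.08, and lower in set 4, by -0.39, for a mean of 0.07 ± 0.33. Xl.951.1.A1_at, from the same cluster, read 56.1, 54.0, 63.6 and 72.7 with mesoderm and 61.2, 42.0, 56.4 and 50.6 alone, with a difference of 0.23 ± 0.28 and an interval within sets from -0.08 to 0.54. The difference of this dim probe set was the highest of the 21, and it did not follow the bright one over the 8 arrays (r = -0.56). The probe sets named itga3-B lay near background, at 24.2 to 67.9 with mesoderm and 23.1 to 59.2 alone.

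Integrin alpha 6, another laminin-binding chain, lay near background in both groups. Its probe sets, matched by hand from the older name INTA6, read 27.1 to 44.3 with mesoderm and 27.9 to 43.9 alone, with differences of 0.07 and -0.15. An intensity this close to the negative controls gives no level for the transcript.

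Of the matrix metalloproteases, mmp14, the membrane-anchored enzyme known for cutting fibrillar matrix and activating pro-MMP2, was well above background. Xl.23718.1.A1_at read 859.7, 1373, 837 and 618 with mesoderm and 740.4, 1289.9, 718 and 723 alone. The array pairs moved together, with set 2 highest in both groups, and the sets held 93.6% of the sum of squares. The difference was 0.08 ± 0.21, and the interval within sets, -0.21 to 0.36, allows a level from 0.866 to 1.28 times that alone (adjusted p = 0.901 in limma). Mmp2, the secreted gelatinase, read 13.1 to 14.1 with mesoderm and 11.9 to 14.6 alone, below the mean of the negative controls in both groups.

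**Figure D3:**
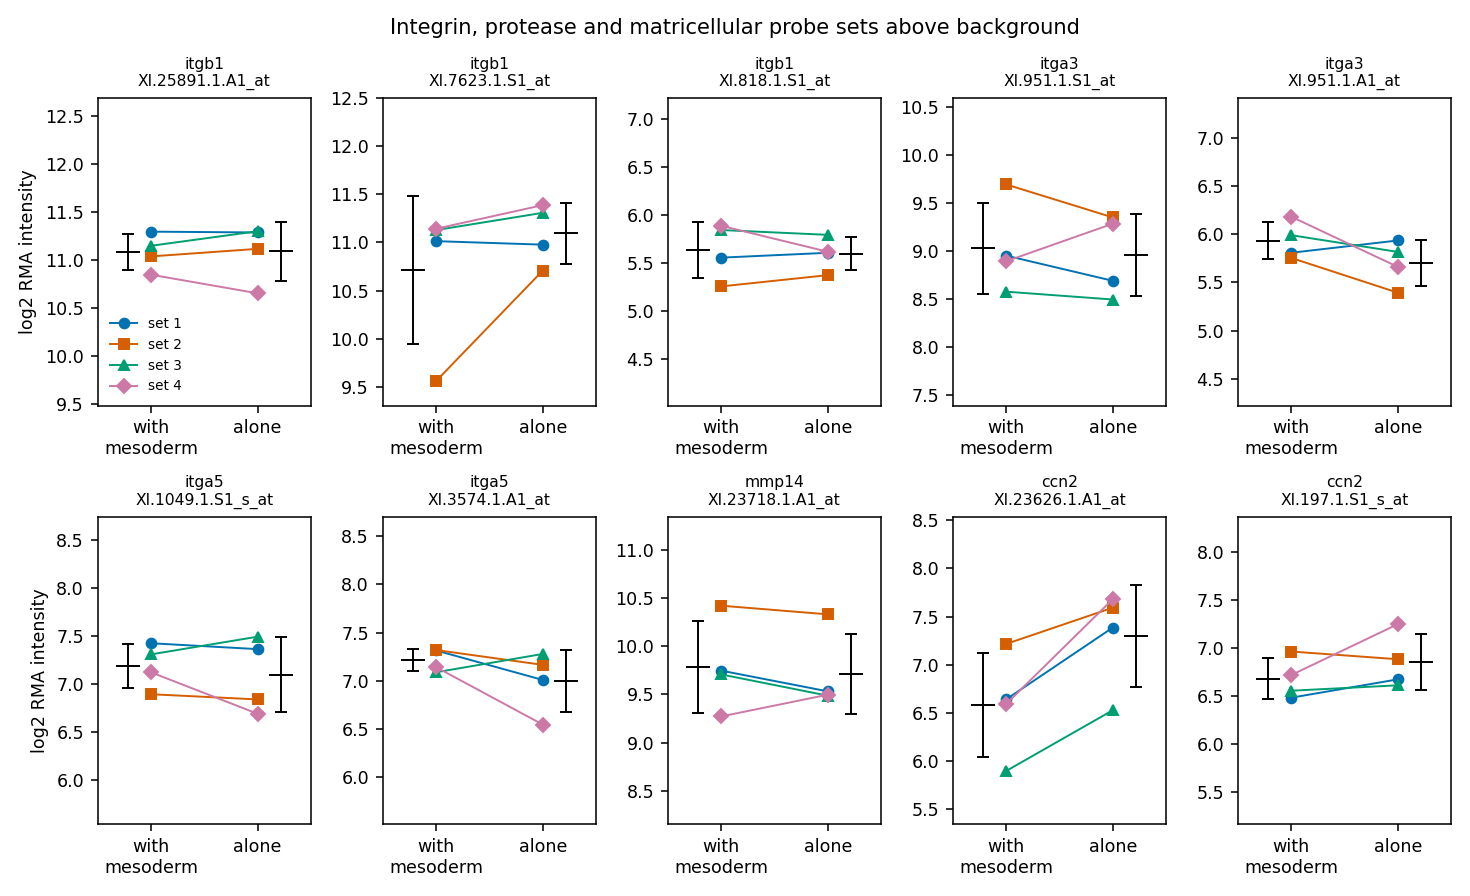
Log2 RMA intensity of the 10 integrin, mmp14 and ccn2 probe sets above background, with mesoderm on the left and alone on the right of each panel; lines join the arrays of a set, and black bars give the mean and SD of 4 arrays. All 4 lines rise from left to right only for ccn2 Xl.23626.1.A1_at (mean difference -0.71), and set 2 falls far below the rest with mesoderm for itgb1 Xl.7623.1.S1_at.

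The matricellular gene ccn2, which encodes connective tissue growth factor and is a standard target of the YAP and TEAD factors and of TGF-beta signalling, had the largest difference of the group. Xl.23626.1.A1_at read 99.6, 149, 59.5 and 96.4 with mesoderm in sets 1 to 4, and 167, 193, 92.1 and 205 alone. It was lower with mesoderm in every set, by -0.75, -0.38, -0.63 and -1.09, although the groups overlapped because the sets differed in level. The mean difference was -0.71 ± 0.30, a level alone 1.64 times that with mesoderm. Limma's 95% interval within sets was -1.03 to -0.39 (adjusted p = 0.111), and without the set term it was -1.44 to 0.02 (adjusted p = 1.00). Leaving out set 4, whose arrays differed the most over all probe sets, the difference was -0.59 and its adjusted p within sets 0.0330 in limma. This was the only call of any probe set of the 10 genes in any fit that was run. Over the within-set runs that left out 1 set, its adjusted p ran from 0.0330 to 0.454 in limma and its difference from -0.82 to -0.59. Without set 4 that fit called 168 of all probe sets higher and 107 lower, against 40 and 20 with every set.

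The other ccn2 probe set had a smaller difference. Xl.197.1.S1_s_at, with probes shared by several transcripts, read 89.3, 125, 93.9 and 105 with mesoderm and 102, 118, 97.6 and 152 alone. It was lower with mesoderm in sets 1, 3 and 4 and higher in set 2, with a difference of -0.17 ± 0.26 and an interval within sets from -0.48 to 0.13 (adjusted p = 0.767 in limma). The pair correlated over the 8 arrays at r = 0.76. A list of 16 other genes of the YAP and TEAD pathway, which includes the factors themselves, had 1 measured member. This was the kinase gene nuak2, at -0.24 ± 0.36, so no account of the list as a group can be given. Of 23 other matricellular genes 4 were measured, and 3 of these lay near background. The remaining one, tgfbi, an integrin-binding matrix protein, stood at -0.18 ± 0.16. It was dim too, at mean log2 levels of 5.47 with mesoderm and 5.65 alone, beside 4.52 and 4.47 for the negative controls.

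Median differences were also taken set by set, for the members above and near background apart. The 14 probe sets above background had medians of -0.09, -0.10, -0.17 and -0.04 in sets 1 to 4, and the 7 near background had -0.02, 0.10, 0.01 and 0.29. The 44 negative controls had -0.08, 0.07, -0.13 and 0.36, and all probe sets -0.02, 0.03, -0.03 and 0.05. In set 4 the median of the members near background was thus above 0, as was that of the negative controls, although only 5 of the 7 were higher with mesoderm. Of the 14 above background, 7 were also higher with mesoderm in set 4. Among them were itga5 Xl.3574.1.A1_at (0.60) and Xl.1049.1.S1_s_at (0.43), itga3 Xl.951.1.A1_at (0.52) and itgb1 Xl.818.1.S1_at (0.27). The rest were bright, namely fn1 Xl.2243.1.S1_a_at (0.21) and Xl.2243.2.S1_at (0.14) and itgb1 Xl.25891.1.A1_at (0.19). In set 4 the itga5 probe sets read 141 and 139 with mesoderm and 93.3 and 103 alone. The medians of all probe sets on those arrays were 131 and 132. Set 4 also had the widest spread of differences over all probe sets, with an SD of 0.528 against 0.250, 0.312 and 0.331 in sets 1 to 3. What part this spread has in the set 4 gains of the member probe sets was not tested.

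**Figure D4:**
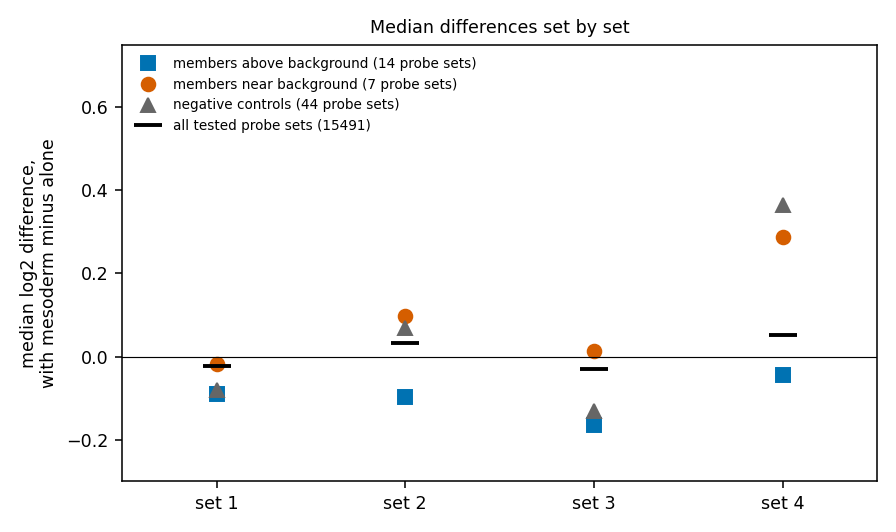
Median log2 difference, with mesoderm minus alone, in each set for the member probe sets above background (squares), those near background (circles), the negative controls (triangles) and all tested probe sets (bars). In set 4 the negative controls stand at 0.36 and the members near background at 0.29, while the members above background stand at -0.04, with 7 of those 14 higher with mesoderm.

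The rest of the adhesion machinery was counted from gene lists, with the brightest probe set standing for each gene. None of the adhesion and matrix lists had a member called in either fit, where 12 of 4050 named genes were called higher and 10 lower within sets. Of 20 other integrin genes 8 were measured, with a median of 0.11 and 6 above 0; the brightest were itgb3, at -0.12 ± 0.13, and itgb5, at -0.03 ± 0.14, both beta chains of vitronectin receptors. The itgb3 probe set shares a cluster number with those of timp3, so its identity is in doubt. Of 27 genes of the adhesion complex that anchors integrins to actin, 14 were measured, with a median of -0.01 and 7 above 0. Its brightest were the talin gene tln2, at 0.16 ± 0.28, and the actin cross-linker gene actn4, at -0.30 ± 0.24, lower in all 4 sets (within sets, adjusted p = 0.510 in limma). Across all named genes the median was 0.01 and 52.6% were above 0.

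The lists of matrix partners of fibronectin likewise held no called member. Of 49 other matrix protein genes 14 were measured, with a median of 0.12 and 11 above 0, and the brightest were the basement membrane linker gene nid2, at -0.30 ± 0.26, and the fibrillin gene fbn3, at 0.10 ± 0.65. Of 46 other matrix protease and inhibitor genes 16 were measured, with a median of 0.14 and 11 above 0, led in brightness by the inhibitor gene timp3, at 0.16 ± 0.62, and the sheddase gene adam10, at -0.07 ± 0.41. Of 19 coreceptor genes 10 were measured, with a median of -0.01, and the brightest were the tetraspanin gene cd63, at -0.30 ± 0.62, and the glypican gene gpc4, at -0.19 ± 0.65. In set 4 alone, the medians of the other integrins, matrix proteins and proteases were 0.63, 0.45 and 0.53, beside 0.36 for the negative controls. Those of the adhesion complex, the coreceptors and the other matricellular genes were -0.17, -0.03 and 0.24.

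**Figure D5:**
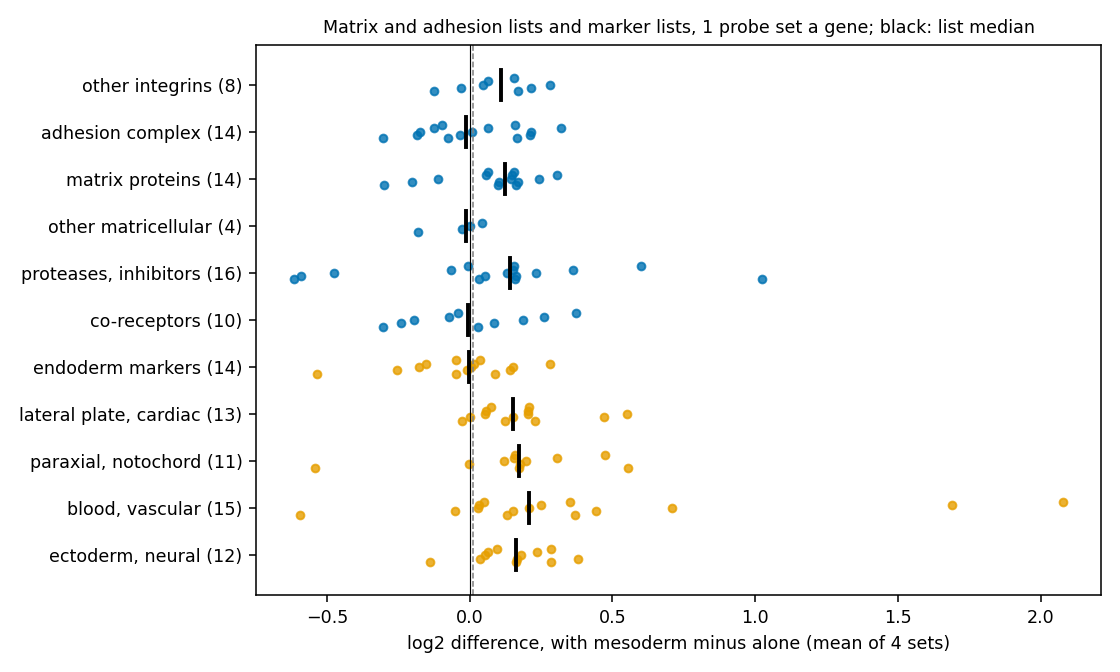
Log2 difference, with mesoderm minus alone, averaged over the 4 sets, of each measured gene of the adhesion and matrix lists (blue) and of the marker lists (orange), 1 probe set a gene, with list medians as black bars, a dashed line at the median of all named genes (0.01) and the number of measured genes in parentheses. Medians of the adhesion and matrix lists lie between -0.01 and 0.14.

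Among the genes of sizzled, the tolloid family and chordin, sizzled was called higher with mesoderm within sets. The 3 szl probe sets were higher with mesoderm in all 4 sets, by 2.39 ± 0.77, 2.12 ± 0.82 and 2.37 ± 0.69, and were called within sets (adjusted p = 0.0187, 0.0331 and 0.0166 in limma) but not without the set term. Their mean log2 levels alone were 4.30, 4.54 and 7.58, the first 2 close to the 4.47 of the negative controls. The last 2 stem from the same cluster, so they are not independent measurements. Within sets, all 3 calls were lost without set 2 (adjusted p = 0.195, 0.195 and 0.181 in limma), where the differences were 2.33, 2.27 and 2.23. Without set 1 only the second passed (adjusted p = 0.0939, 0.0481 and 0.0939 in limma), and without set 3 only the last (adjusted p = 0.0517, 0.0695 and 0.00927 in limma). With cyclic loess, too, only the last passed (adjusted p = 0.0627, 0.0824 and 0.0421 in limma). The probe set named Tll, read here as the tolloid-like gene tll1, was lower in all 4 sets, by -0.59 ± 0.27 (within sets, adjusted p = 0.172 in limma). Another tolloid-like gene, tll2, stood at -0.47 ± 0.45, lower in 3 of 4 sets. The 5 probe sets of bmp1, the founding member of the tolloid family, lay between -0.09 and 0.21, the lowest of them near background. The chordin probe sets, named chrd.1, lay near background, at 0.14 ± 0.47 and 0.03 ± 0.28. These are RNA levels, and no file measured the fibronectin protein or its fibrils.

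As for the tissue, 14 of 15 endoderm marker genes were measured, and 11 of them lay above background, darmin, foxa1, gata5, gata6 and hnf4a among them, while hhex, cer1 and frzb2 lay near background. The median difference of the 14 was 0.00, and their summed intensity was 20902 to 22890 with mesoderm and 19848 to 25597 alone. In all 4 sets, 2 of them were higher with mesoderm and 2 lower. The lower ones were sox17a, at -0.53 ± 0.65, and gata6, at -0.26 ± 0.25 (within sets, adjusted p = 0.510 and 0.625 in limma). The fall of sox17a was largest in set 4, at -1.50, and sox17b stood at 0.02 ± 0.74. The higher ones were gata5, at 0.14 ± 0.09, and frzb2, near background, at 0.15 ± 0.09 (within sets, adjusted p = 0.773 and 0.754 in limma). Markers of mesoderm were also read: of 13 measured lateral plate and cardiac genes 12 were above 0, with sums of 1243 to 1739 with mesoderm and 769 to 1445 alone, and 6 of them, foxf1, tbx20, bves, myl7, tnni3 and tnnt2, lay near background. The brightest of this list, nkx2-3 and nkx2-5, stood at 0.23 ± 0.55 and 0.47 ± 0.74. Of 11 paraxial and notochord genes 9 were above 0, with sums of 3838 to 8446 with mesoderm and 5341 to 8939 alone, and 3 lay near background. These sums rest largely on pax3, at a mean log2 level of 11.88 with mesoderm and 12.42 alone. Its probe set carried only a locus number and got the name pax3 from RefSeq's gene table, so its identity was not checked. This probe set was lower with mesoderm in all 4 sets, by -0.54 ± 0.34 (within sets, adjusted p = 0.247 in limma). The next brightest, ckm, was at 8.84 and 8.28, higher in 3 of 4 sets, by 0.56 ± 0.56 (adjusted p = 0.415 in limma). Of 15 blood and vascular genes 13 were above 0, with sums of 3458 to 5972 with mesoderm and 3061 to 3331 alone, and 2 lay near background. The brightest were mpo, at 2.08 ± 1.52 and higher in all 4 sets, and cebpa, at 0.37 ± 0.83 and higher in 2. Neither was called (within sets, adjusted p = 0.174 and 0.763 in limma). Ets1 was lower in all 4 sets, by -0.60 ± 0.38, and lmo2 was higher in all 4, by 0.71 ± 0.36. Neither was called (within sets, adjusted p = 0.234 and 0.139 in limma). From the lateral plate and paraxial lists, tbx2 and foxc2 were higher in all 4 sets, by 0.55 ± 0.32 and 0.47 ± 0.38. They were not called either (adjusted p = 0.233 and 0.353 in limma). Ets1, lmo2, tbx2 and foxc2 were picked after their values were seen. Lcp1 was called within sets (1.69 ± 0.76, adjusted p = 0.0490 in limma). That call was lost without set 1, 2 or 3 (adjusted p = 0.178, 0.249 and 0.126 in limma) or with cyclic loess (0.0824). Of 12 ectoderm and neural genes 11 were above 0, with sums of 776 to 851 with mesoderm and 481 to 1117 alone, and 5 lay near background. The brightest of this list, sox2 and sox3, stood at 0.28 ± 0.57 and 0.24 ± 1.39. Twist1, at 0.38 ± 0.39, and grhl3, near background, at 0.28 ± 0.32, were higher in all 4 sets. Neither was called (within sets, adjusted p = 0.504 and 0.627 in limma), and both were picked after their values were seen. Of all probe sets, 8.35% were higher and 10.3% lower with mesoderm in all 4 sets. In set 4 the medians of these lists of other cell types were 0.51, 0.53, 0.34 and 0.48, beside 0.36 for the negative controls, while in sets 1 to 3 they lay between -0.10 and 0.19. The part that other cells have in the levels of fibronectin and the integrins was not tested.

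Finally, the genes whose pattern over the arrays was most like that of the brightest fibronectin probe set were listed, as a description only, among 2289 named genes with a mean log2 level of at least 7. Over the 8 arrays these were clcn5, lcgf48.2-a, timp3, zfp36l2.1 and not, with Pearson r of 0.94, 0.92, 0.92, 0.88 and 0.88. After each set's mean was subtracted they were ier5l, sox11, lcgf48.2-a, ppox and rrm1, with r of 0.98, 0.98, 0.96, 0.96 and 0.95. The arrays of a set share a set number and tend to deviate together, and the highest values among so many genes are high by selection.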

How the data were processed

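Biotinylated cRNA from 5 ug of total RNA of each of 8 samples was read on Affymetrix arrays, per the labels' protocols. The deposited values are RMA intensities, 1 per probe set on a linear scale, per the submitters' processing notes; its version is not given here, and per the file headers 2 data sets are named, so arrays outside the series may have shared the normalization. The deposited annotated table and series matrix were equal in 124888 of 124888 cells. The deposited values were turned to log2 for all tests.

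Of 15611 probe sets, 120 controls were left out. Names came from the table, updated through RefSeq's gene table for X. laevis by symbol (2114 probe sets), gene ID (2106), synonym (1320) or by hand (5), kept as written for 419, and 9527 stayed unnamed, so that 4050 genes had a name. The members and lists were chosen with earlier results of these data known. Named by rule were all probe sets of the members, called members and the 2 brightest genes of each list, and genes of sizzled, the tolloid family and chordin. Other genes were picked after their values were seen.

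Limma 3.58.1 (lmFit, eBayes) in R 4.3.3 compared the groups, two-sided. Same-numbered arrays' deviations from their group means correlated at 0.84, 0.85, 0.69 and 0.32 in sets 1 to 4, all over 0.1, so the set numbers pair the samples and the within-set fit is given beside the main fit. The number of arrays limits precision. Alternatives were the set as block or random effect, array weights, other normalizations, filters, thresholds, means per gene, and leaving out arrays or sets.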

Additional observations from a re-analysis of the deposited data

Results flagged for a closer look

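Each group of 4 arrays was searched for 1 array far from the other 3 (Dixon's test at its 95% critical value), over the 42 groups that the 21 probe sets give, and chance alone marks about 1 in 20 such groups. The test marked 3. For itgb1 Xl.7623.1.S1_at, the set 2 array with mesoderm was lowest of its group at 9.559 on the log2 scale, where the nearest of the others was at 11.01. For mmp14, the set 2 array alone was highest of its group at 10.33, with the nearest at 9.532; the set 2 array with mesoderm was the highest of its own group as well. For itga3 Xl.21499.1.S1_s_at, which lies near background, the set 4 array with mesoderm was highest at 4.899, with the nearest at 4.631.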

How the results depend on the processing

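No probe set of the 10 genes was called in the main fit or in any alternative except 1: ccn2 within sets without set 4 (1 lower). Over all probe sets, 0 were called either way in the main fit, although limma's unadjusted p was under 0.05 for 203 higher and 181 lower. The replicate block gave 40 higher and 20 lower, the set as a random effect 56 and 26, the block with cyclic loess 13 and 8, and the block at an adjusted p under 0.1, chosen after seeing the data, 62 and 44. Leaving out arrays or sets gave 0 to 168 higher and 0 to 107 lower over all probe sets, with the highest counts in the block without set 4, 0 and 0 without set 2, 1 and 1 without set 1, and 5 and 7 without set 3, so every within-set call was lost without set 2. The same runs gave 0 to 1 lower among the members. The block changed no other call of a member, and the cause of these shifts was not tested.

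Of 537 member values under alternatives, 64 changed sign, in 10 probe sets whose main difference was at most 0.14 in size, and 47 of the 64 came from leaving out arrays or sets. For fn1 Xl.2243.1.S1_a_at the sign turned with array weights (0.0026), quantile normalization again (0.012), median centring (0.00092) and cyclic loess with or without the block (0.046), and for itgb1 Xl.25891.1.A1_at likewise (0.046, 0.048, 0.0032 and 0.045). Cyclic loess, in both fits, turned itgb1 Xl.818.1.S1_at (-0.0082) and itga3 Xl.21499.1.S1_s_at (-0.031), and the itga3 one also turned with array weights (-0.016) and quantile normalization (-0.027). Array weights turned itga3 Xl.951.1.S1_at (-0.034). Leaving out 1 array or set, fn1 Xl.2243.1.S1_a_at ran from -0.083 to 0.056, itgb1 Xl.25891.1.A1_at from -0.15 to 0.071 and itgb1 Xl.818.1.S1_at from -0.046 to 0.16. The same ranges were -0.15 to 0.23 for itga3 Xl.951.1.S1_at, -0.097 to 0.36 for Xl.21499.1.A1_s_at and -0.056 to 0.10 for Xl.21499.1.S1_s_at. They were -0.045 to 0.22 for itga5 Xl.1049.1.S1_s_at, -0.13 to 0.20 for itga5 Xl.1048.1.A1_at, -0.061 to 0.20 for itga6 Xl.21436.1.A1_at and -0.14 to 0.28 for mmp14. Ranges without a change of sign were also wide, at 0.065 to 0.35 for itga5 Xl.3574.1.A1_at, -0.27 to -0.043 for ccn2 Xl.197.1.S1_s_at, -0.27 to -0.019 for fn1 Xl.2243.2.S1_at and -0.53 to -0.00016 for itgb1 Xl.7623.1.S1_at. For ccn2 Xl.23626.1.A1_at the range was -0.97 to -0.48. Within sets, sign turned for fn1 Xl.2243.1.S1_a_at without set 1 or 2 (0.034 and 0.032), for itgb1 Xl.25891.1.A1_at without set 2 or 3 (0.017 and 0.041), for itga3 Xl.951.1.S1_at without set 2 (-0.016) and for itga3 Xl.21499.1.S1_s_at without set 3 (-0.015). Without set 4 it turned for itgb1 Xl.818.1.S1_at (-0.039), itga3 Xl.21499.1.A1_s_at (-0.097), itga5 Xl.1049.1.S1_s_at (-0.023) and itga5 Xl.1048.1.A1_at (-0.13).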

Other observations

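Some matrix and adhesion genes outside the 10 stood out by the size or the constancy of their differences. They were picked after their values were seen, and none was called. Furin, the proprotein convertase that activates membrane-type metalloproteases and many growth factors, was higher with mesoderm in all 4 sets, by 0.60 ± 0.27 (within sets, adjusted p = 0.171 in limma). Serpine2, a secreted inhibitor of thrombin and plasminogen activators, was lower in all 4 sets, by -0.61 ± 0.67 (adjusted p = 0.438 in limma). Its largest fall was in set 4, at -1.58. The collagenase gene mmp1 had the largest mean of the protease list, 1.03 ± 1.56, higher in 3 of 4 sets (adjusted p = 0.586 in limma), with a spread between sets larger than its mean. Dag1, which encodes the laminin receptor dystroglycan, stood at 0.37 ± 0.35, higher in 3 of 4 sets (adjusted p = 0.490 in limma). Among adhesion genes, ilk and fermt1, which encode adaptors of the beta 1 tail, were higher in all 4 sets by 0.21 ± 0.15 and 0.22 ± 0.09 (adjusted p = 0.655 and 0.624 in limma). So were cav1, by 0.32 ± 0.36, the coreceptor gene cd44, by 0.26 ± 0.32, and itga4, near background, by 0.28 ± 0.21. Actn4 was lower in all 4. Of all probe sets, 8.35% were higher and 10.3% lower with mesoderm in all 4 sets.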
